A study of Homo sapiens with 32 samples.

Results

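The voltage-gated sodium and calcium channel genes were examined as a module of 36 genes, namely 9 sodium channel alpha subunits, 3 sodium channel beta subunits, 10 calcium channel alpha1 subunits and 14 auxiliary calcium channel subunits. The readout was H3K27ac, an acetyl mark on a histone tail that sits at active promoters and enhancers, mapped here by ChIP-seq, in which marked chromatin is pulled down with an antibody and its DNA sequenced. A deposited region belonged to a member when its nearest protein-coding start site within 100 kb was a start of that gene, or when it overlapped the gene body. By this rule 351 of 92092 regions on the reference chromosomes belonged to 34 members, and no region belonged to CACNB4 or CACNG3. Regions shared by neighbouring members were counted with each of them, so there were 357 pairs of gene and region. The nearest start belonged to a gene outside the module for 84 of the 351 regions, which were included by gene-body overlap, and 5 regions also held a start of another protein-coding gene. Nearness does not show which gene a region regulates.

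The cells were SK-N-BE(2)C, an established human neuroblastoma line of the adrenergic, sympathetic neuron-like type, grown for 5 days with solvent alone (DMSO), with 1 µM palbociclib (PB), which blocks the kinases CDK4 and CDK6 and so holds cells in G1, with retinoic acid (RA), a nuclear receptor ligand used to push neuroblastoma cells to differentiate, or with PB and RA together (PB+RA). The labels list palbociclib as a treatment agent on every sample, DMSO included, and groups were taken from the treatment field. Each group held 4 ChIP libraries, which the methods describe as biological replicates from different passages, and 16 input libraries served as the reference for peak calling. All groups share this line alone, so the values describe a single genetic background. In such bulk samples a change in the share of cells that carry the mark and a change in the mark per cell cannot be told apart.

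Voltage-gated sodium channels open the upstroke of the action potential, with a pore-forming alpha subunit and beta subunits that adjust gating and membrane placement. Voltage-gated calcium channels couple depolarization to transmitter release, excitability and gene expression, and their alpha1 pore works with cytosolic beta and extracellular alpha2delta subunits. In sympathetic neurons and in neuroblastoma cells that mature toward them, the gain of these currents is a familiar part of becoming electrically excitable.

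For each library and region, peak enrichment was the fold enrichment over input of the broad peaks that the authors called in that library, averaged over the width of the region, with bases outside peaks at 0. A value of 0 therefore says that no peak was listed, not that acetylation was absent. Where a region is described as marked in a library, a peak was listed there. Differences are on the scale of log2(peak enrichment + 1), after each library was centred on regions with a peak in all 16 libraries, and understate the change of low values. A region was called higher or lower at an adjusted p under 0.05 (limma across all 92092 regions, Benjamini-Hochberg) with a difference beyond 0.5. Read depth is unknown here. The libraries held 64516 to 104392 peaks that covered 104.1 to 167 Mb, and DMSO replicate 3 had the fewest peaks. PB+RA replicate 2 stood apart from the rest of its group, with 307.2 kb under peaks in channel regions against 415.8 to 425.2 kb. As a check on the labelled line, start regions of 8 of 8 adrenergic marker genes held a peak in at least 2 of 4 DMSO libraries, against 4 of 6 mesenchymal, 2 of 4 immune and 1 of 3 endothelial marker genes.

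Channel regions changed in both directions, and the direction differed between genes. Of the 351 regions, 153 (43.6%) were called in at least 1 of the 3 comparisons with DMSO, against 39.8% of all regions. None was called higher in 1 of these and lower in another. The 3 comparisons share the DMSO libraries, and the same count was not made over all regions, so no agreement between the drugs is read from it. With PB, 18 regions rose and 16 fell, against 5.87% higher and 3.55% lower among all regions. With RA, 32 rose and 38 fell, against 10.7% and 6.41% of all regions. With PB+RA, 52 rose and 61 fell, against 19.4% and 11.9% of all regions. As shares of the channel regions these are 5.13% and 4.56% with PB, 9.12% and 10.8% with RA, and 14.8% and 17.4% with PB+RA. These shares are close to those of all regions with PB, and no test of the differences was made. With PB+RA and neither drug alone 57 regions (16.2%) were called, against 16.1% of all regions, and 28 members had at least 1 called region, of which 11 had only higher calls, 7 only lower calls and 10 both.

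**Figure D1:**
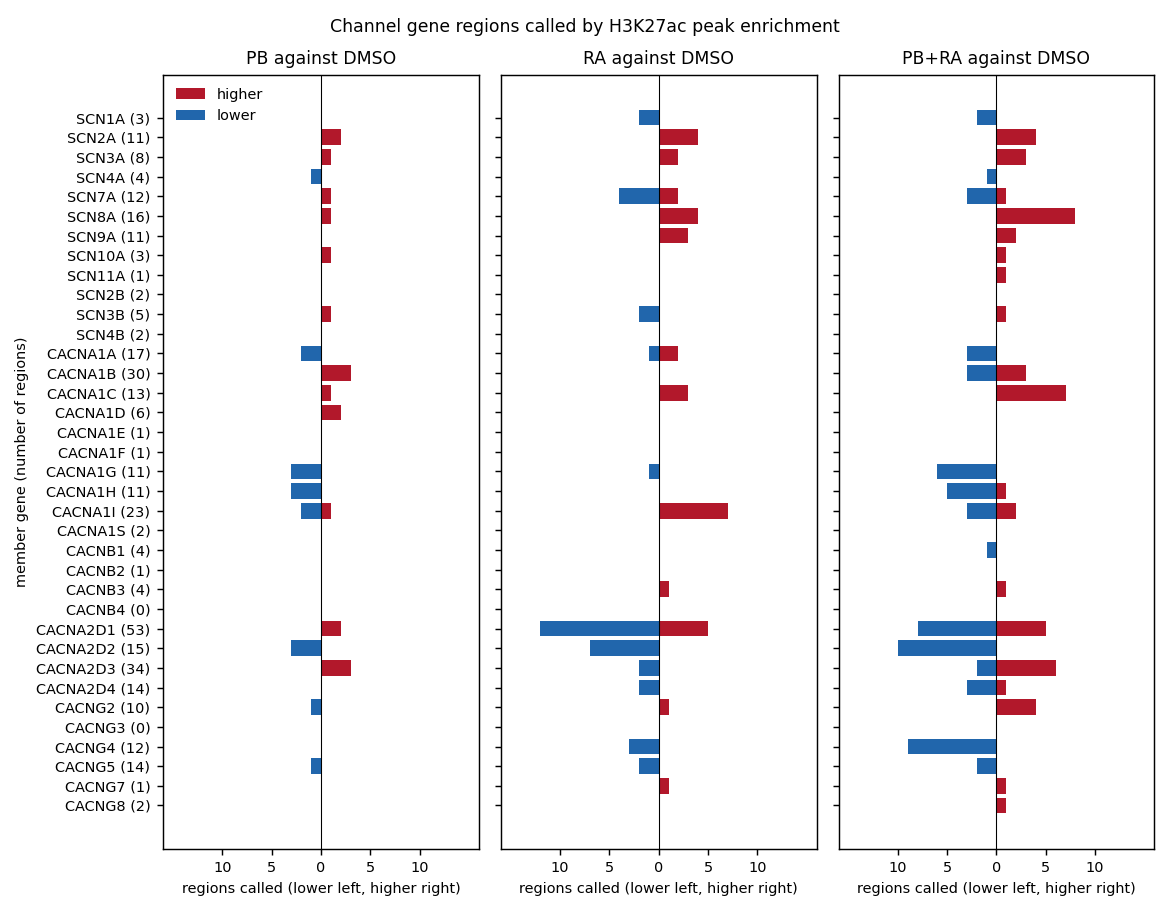
Regions called for each member gene (rows, with the number of regions in brackets) in PB, RA and PB+RA against DMSO, with the number of regions called higher drawn to the right and lower to the left of 0. SCN8A and CACNA1C had only higher calls, with 8 and 7 regions in PB+RA, CACNA2D2 and CACNG4 had only lower calls, with 10 and 9, and the lower calls of CACNA1G and CACNA1H fell from 6 and 5 to 1 and 0 in PB+RA when values were adjusted for the GC content of regions.

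The split between higher and lower calls moved with the scaling of the libraries. Over all regions the median difference, on the log2 scale, was 0.115 in PB libraries, 0.0537 in RA libraries and 0.0463 in PB+RA libraries. Without scaling PB gave 10 higher and 22 lower, and centring within classes of GC content (10 classes) gave 12 higher and 5 lower with PB, 26 and 51 with RA, and 40 and 54 with PB+RA. Quantile normalization gave 25 and 52 with RA and 39 and 72 with PB+RA. Without DMSO replicate 3 the counts were 15 and 30 with PB, 27 and 54 with RA and 46 and 86 with PB+RA, and without PB+RA replicate 2 they were 58 and 52 with PB+RA.

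Base composition moved with these calls. The median GC content was 50.4% over channel regions and 47.1% over all regions. Channel regions that fell with PB had a median GC content of 61.3%, against 43.9% for those that rose, and over all called regions the values were 57.4% and 40.6%. With PB+RA the channel regions that fell had a median of 55.1% and those that rose 42.4%. With RA the medians were 47.4% and 42.0%. The part of base composition in the calls was not tested beyond the centring, and the calls that it ends are given below for the regions described with values. Among further calls it ended 2 of the 3 higher calls of CACNA1B with PB, 3 of 6 higher and both lower calls of CACNA2D3 with PB+RA, 3 of 7 higher calls of CACNA1C with PB+RA, 3 of 5 higher calls of CACNA2D1 with PB+RA, and the single higher calls of SCN10A, SCN3B and SCN7A with PB+RA.

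**Figure D2:**
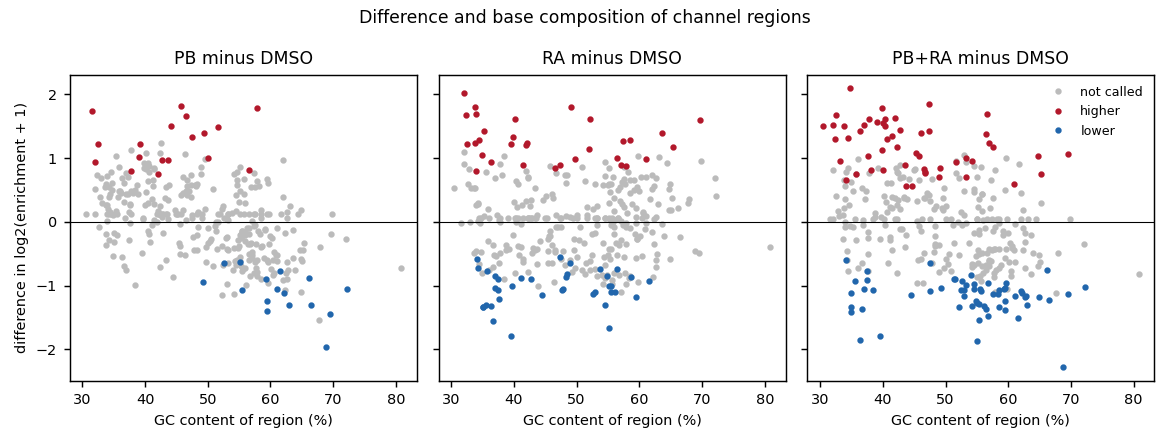
Difference from DMSO in log2(peak enrichment + 1) against the GC content of each channel region (%), with 1 panel per treatment and called regions in colour. In the PB panel the lower calls sit at high GC content (median 61.3%) and the higher calls at low GC content (median 43.9%), while in the RA panel the medians are 47.4% and 42.0%.

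The authors' group means (log2 concentration, normalized before deposit, pooled over the libraries and therefore without an SD) showed that families differed. Over all channel regions the median of the authors' mean in treatment minus that in DMSO was -0.16 (PB), -0.21 (RA) and -0.32 (PB+RA), against -0.09, -0.01 and -0.02 over all regions. Sodium alpha regions had medians of 0.18, 0.44 and 0.56 in the same order, and regions of L-type calcium alpha1 genes 0.38, 0.32 and 0.51. Gamma regions had the lowest medians with RA and PB+RA among the 8 families, -0.69 and -1.01, after -0.55 with PB. Alpha2delta regions went from 0.16 with PB to -0.50 with RA, and was -0.37 with PB+RA. T-type regions showed the reverse order, -0.73 (PB), 0.12 (RA) and -0.62 (PB+RA). No adjustment of these means for GC content was made here. Family medians of the difference in log2(peak enrichment + 1) moved with GC centring. With PB+RA they went from 0.354 to 0.093 (sodium alpha), -0.376 to 0.104 (T-type) and -0.068 to -0.45 (alpha2delta). L-type regions went from 0.508 to 0.503 and gamma regions from -0.648 to -0.415. The part of base composition in the family differences was not tested further.

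**Figure D3:**
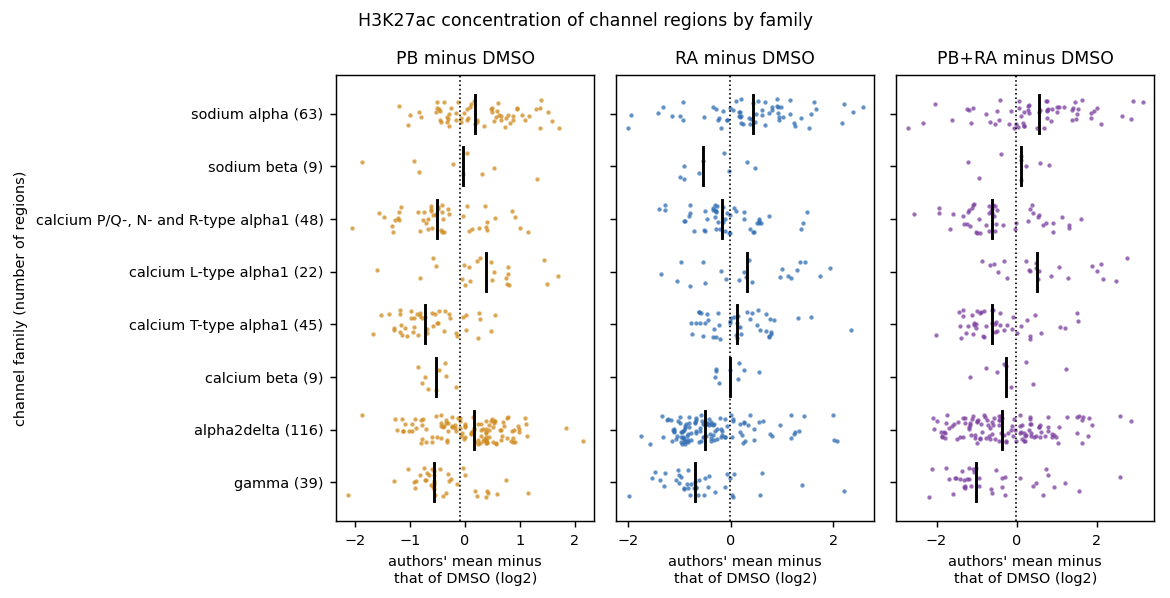
Difference of the authors' group means from DMSO (log2 concentration) for every region (dots), by channel family with the number of regions in brackets. Black bars mark the median of each family and the dotted line that of all regions. The bar of sodium alpha regions lies right of the dotted line in all 3 panels (0.18, 0.44 and 0.56), and that of gamma regions lies left of it (-0.55, -0.69 and -1.01). No adjustment for GC content was made here.

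The sodium channel alpha subunits held 63 regions, of which 5 rose and 1 fell with PB, 12 rose and 6 fell with RA, and 19 rose and 6 fell with PB+RA. Centring by GC content left 2 and 2 with PB, 6 and 8 with RA and 11 and 6 with PB+RA. Higher calls thus still outnumbered lower ones with PB+RA and not with RA. Before centring the family shares were 30.2% and 9.52% with PB+RA, against 19.4% and 11.9% of all regions. With RA they were 19.0% and 9.52%, against 10.7% and 6.41%. More higher than lower calls was thus also the balance of all regions, and the family was not tested against them. Of these genes 5 lie side by side on chromosome 2 (SCN3A, SCN2A, SCN1A, SCN9A and SCN7A, hg19 chr2:165944036-167467992), and regions in this cluster moved in opposite directions.

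SCN2A and SCN3A, the alpha subunits that predominate in the developing brain, had only higher calls. Of 11 SCN2A regions 2 rose with PB, 4 with RA and 4 in the PB+RA group, of which 0, 2 and 2 kept an adjusted p under 0.05 after GC centring. Of 8 SCN3A regions 1, 2 and 3 rose, of which 0, 1 and 1 kept it. SCN3A lies on the minus strand and SCN2A on the plus strand, and 3 regions were assigned to both. At the SCN3A start (chr2:166058230-166060657, 2428 bases that cover the canonical start), peak enrichment was 0, 0.626, 1.13 and 1.59 in DMSO replicates 1 to 4, 3.17, 4.17, 3.36 and 0.963 with PB, 2.69, 1.83, 3.42 and 3.98 with RA, and 3.92, 3.55, 6.66 and 3.92 with PB+RA. All RA and PB+RA libraries lay above all DMSO libraries, and PB replicate 4 was the only PB library within the DMSO range. The difference was 1.22 ± 0.26 (SE) with PB (adjusted p = 0.00427), 1.22 ± 0.26 with RA (adjusted p = 0.00145) and 1.68 ± 0.26 with PB+RA (adjusted p = 2.76e-05). After GC centring the PB difference was 0.80 with an adjusted p of 0.0972, whereas RA and PB+RA kept an adjusted p of 0.0217 and 0.0152. At the SCN2A start (chr2:166095879-166100700) the values were 1.02, 1.41, 1.59 and 1.28 in DMSO, 3.77, 2.85, 1.85 and 2.43 with PB, 1.44, 1.24, 1.01 and 1.19 with RA, and 4.18, 2.88, 3.62 and 3.71 with PB+RA. PB and PB+RA libraries lay above every DMSO library, and RA libraries overlapped them. The difference was 0.79 ± 0.20 with PB (adjusted p = 0.0109), -0.01 ± 0.20 with RA (adjusted p = 0.978) and 1.03 ± 0.20 with PB+RA (adjusted p = 0.000256), and GC centring ended both calls (0.43, adjusted p = 0.193, and 0.35, adjusted p = 0.166). The leading region of SCN2A, an intronic region 12909 bases from the nearest start, had no listed peak in any DMSO library and a peak in all 4 RA and all 4 PB+RA libraries. Its values were 2.86, 2.81, 3 and 1.1 with PB+RA and its difference was 1.78 ± 0.34 (adjusted p = 0.000242).

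The bases just upstream of the canonical start of SCN2A are shown because they hold few CpG pairs, and they lie next to the start region, of which they cover 3 bases. The 250 bases nearest to the canonical start that overlap no annotated exon were read from GRCh37 (the hg19 sequence), and capitals mark the CpG pair. The SCN2A window (chr2:166095632-166095881, plus strand) has a GC content of 29.6% with 1 CpG pair. Over the 250 bases upstream of 78714 protein-coding starts the median GC content is 60.8% with 15 CpG pairs, and 16.2% of windows hold at most 2.
SCN2A upstream: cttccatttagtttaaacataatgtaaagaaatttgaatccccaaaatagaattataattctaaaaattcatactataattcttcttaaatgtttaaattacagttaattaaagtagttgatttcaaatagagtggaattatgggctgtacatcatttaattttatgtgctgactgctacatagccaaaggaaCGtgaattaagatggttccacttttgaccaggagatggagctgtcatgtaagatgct

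SCN1A, whose product sustains firing of inhibitory interneurons, had lower calls with RA and with PB+RA. Its region of 2390 bases at chr2:166929263-166931652 covers annotated starts at the beginning of a coding exon, while the canonical start, at position 166984530, lies 21202 bases from the nearest region. Peak enrichment there was 2.08, 4.19, 2.02 and 2.43 in DMSO and 0.826, 2.17, 1.89 and 0.808 with PB, and no peak was listed in any RA or PB+RA library. The groups without peaks did not overlap DMSO, and PB overlapped it in 1 library. The difference was -1.79 ± 0.30 with RA (adjusted p = 9.96e-05), -1.80 ± 0.30 with PB+RA (adjusted p = 5.7e-05) and -0.48 ± 0.30 with PB (adjusted p = 0.322). The neighbouring intronic region, the leading region of the gene, fell by 1.31 with RA and by 1.85 with PB+RA, and GC centring kept both calls (adjusted p = 0.000212 and 8.3e-07). No region of SCN1A was called higher.

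SCN9A and SCN7A complete the cluster. SCN9A, the alpha subunit of pain-sensing and sympathetic neurons, had a start region that was marked in every library, at 3.29, 4.29, 5.36 and 4.17 in DMSO and 8.37, 6.85, 8.28 and 8.02 with PB+RA, which did not overlap. Its difference was 0.81 ± 0.16 with PB+RA (adjusted p = 0.000478) and 0.28 after GC centring (adjusted p = 0.236). SCN9A had 3 regions higher with RA and 2 with PB+RA, and none of these calls held after GC centring. Its leading region, 12413 bases upstream, stood at 3.75, 1.28, 1.3 and 2.57 with RA against 0, 1.36, 0 and 0.452 in DMSO, so that 2 RA libraries lay within the DMSO range (difference 1.23 ± 0.36, adjusted p = 0.0162, and 0.0754 without RA replicate 1). SCN7A encodes an atypical channel that senses extracellular sodium. Its start region was marked in 1 of 4 DMSO libraries (1.83) and in all PB libraries (2.93, 3.33, 2.67 and 3.43), with a difference of 1.78 ± 0.41 (adjusted p = 0.00669). With RA, 2 regions of SCN7A rose and 4 fell, and with PB+RA 1 rose and 3 fell.

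SCN8A, the main alpha subunit of mature axon initial segments and nodes of Ranvier, had the most higher calls with PB+RA among the alpha subunits. It also had the most regions of them. Of its 16 regions 1 rose with PB and 4 with RA, 8 rose with PB+RA, and none fell. After GC centring 0, 3 and 5 of these kept an adjusted p under 0.05. The leading region, 5409 bases upstream of the nearest start (chr12:51977263-51979301), held no peak in DMSO or RA libraries and stood at 0.674, 1.26, 0 and 0 with PB and at 3.61, 3.68, 2.76 and 2.58 with PB+RA. Every PB+RA library lay above every library of the other 3 groups. The difference was 2.09 ± 0.30 with PB+RA (adjusted p = 1.1e-05) and 0.61 ± 0.30 with PB (adjusted p = 0.205). The authors' means for the same region were 3.45 in DMSO, 5.04 in PB, 4.70 in RA and 6.60 in PB+RA. The start region itself was marked strongly throughout, from 13.4 to 18.1 in DMSO and from 9.41 to 21.7 with PB+RA, and was not called in any comparison. A region 55653 bases upstream, chosen after its values were seen, rose in steps from 1.14, 3.28, 1.1 and 2.35 in DMSO to 3.17, 4, 4.2 and 5.11 with RA and 8.07, 4.66, 7.82 and 5.47 with PB+RA (differences 0.90 ± 0.24 and 1.42 ± 0.24, adjusted p = 0.00223 and 8.37e-06).

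**Figure D4:**
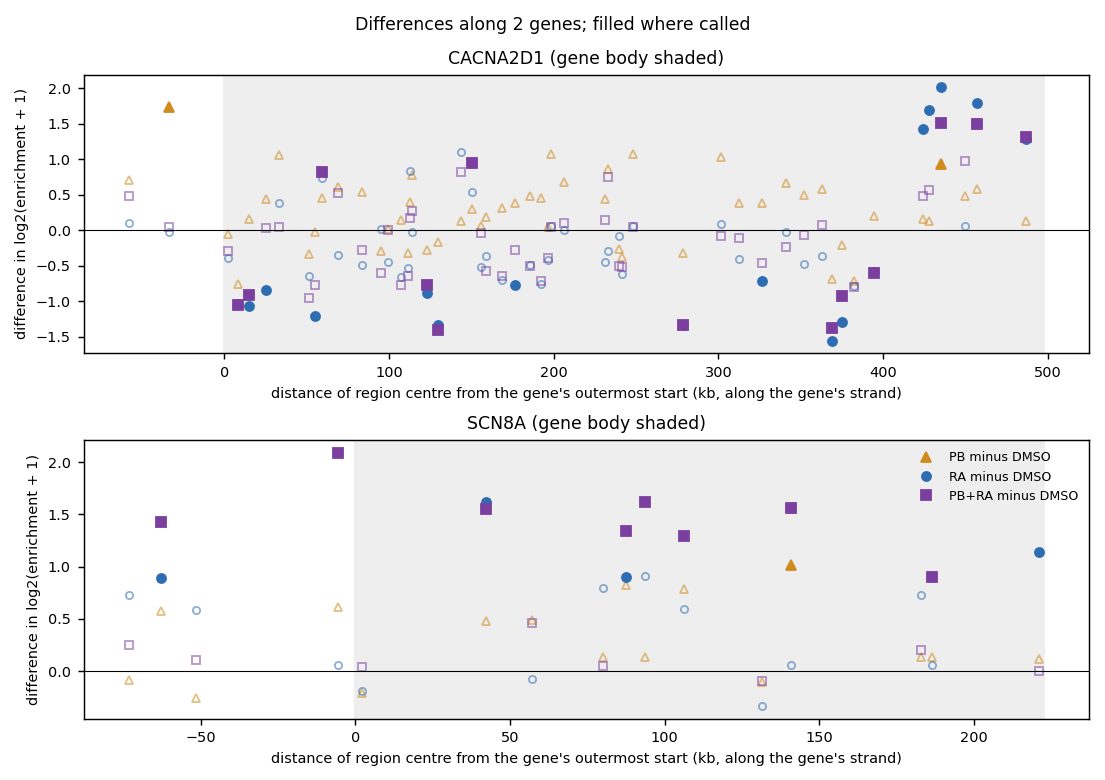
Difference from DMSO in log2(peak enrichment + 1) of each region of CACNA2D1 (upper panel) and SCN8A (lower panel) against the distance of its centre from the outermost start of the gene (kb, along the strand), with filled symbols for called regions. In CACNA2D1 the 5 regions called higher with RA lie 424.5 to 486.8 kb from that start and the 12 called lower lie 8.3 to 394.3 kb from it, and in SCN8A all filled symbols lie above 0.

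The remaining alpha subunits had few regions. SCN10A and SCN11A are alpha subunits of sensory neurons. SCN10A had 3 regions, and its leading region held no peak in DMSO and stood at 0.411, 1.8, 1.52 and 3.28 with PB (difference 1.49 ± 0.40, adjusted p = 0.0187, and 0.0799 without PB replicate 4). The only SCN11A region covers its start and also a start of another gene. It stood at 3.32, 5.52, 8.89 and 7.15 in DMSO and 12.1, 10.6, 8.4 and 8.87 with PB+RA, where 1 DMSO library reached the PB+RA range, and the difference was 0.71 ± 0.19 (adjusted p = 0.00656). SCN4A, the skeletal muscle alpha subunit, had a GC-rich region that fell with PB from 1.85, 1.95, 0.43 and 3.35 to a single peak of 0.166 (difference -1.24 ± 0.33, adjusted p = 0.0177), a call that GC centring ended (adjusted p = 0.15) and that leaving out DMSO replicate 1 or DMSO replicate 4 ended as well (adjusted p up to 0.0757).

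The beta subunits of sodium channels held 9 regions, of which 1 rose with PB, 2 fell with RA and 1 rose with PB+RA. Over all regions 5.87% rose with PB, 6.41% fell with RA and 19.4% rose with PB+RA. All 4 called regions were those of SCN3B, a subunit that shifts channel gating and is found in sympathetic and central neurons. Its start region was marked strongly in every group, at 9.21, 11.6, 12.2 and 14.4 in DMSO and 9.2, 8.43, 7.47 and 7.18 with RA, and was not called against DMSO (difference with RA -0.44 ± 0.17, adjusted p = 0.067). The leading region of SCN3B had peaks in 3 of 4 PB libraries, at 2.3, 2.89 and 1.18, and in no other library (difference 1.33 ± 0.33, adjusted p = 0.012). SCN4B was marked at its start in 3 of 4 DMSO libraries and in no PB library, with a difference of -1.53 ± 0.50 that missed the threshold (adjusted p = 0.0518). SCN2B, a beta subunit that links to the alpha subunit by a disulfide bond, had 2 regions, neither of which was called.

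Among the L-type calcium channel alpha1 genes, CACNA1C rose with RA and PB+RA and CACNA1D with PB, and CACNA1F and CACNA1S had no call against DMSO. L-type channels open at strong depolarization, couple activity to gene expression in neurons and are the targets of dihydropyridines. Of 22 regions 3 rose with PB and 3 with RA, 7 rose with PB+RA, and none fell in these comparisons. The higher shares were 13.6%, 13.6% and 31.8% in that order, against 5.87%, 10.7% and 19.4% of all regions. Lower calls made up 3.55%, 6.41% and 11.9% of all regions, and the family was not tested against them. CACNA1C held all of the higher calls with RA and with PB+RA. At its canonical start (chr12:2161180-2163598) peak enrichment was 0, 0, 0.67 and 2.94 in DMSO, 0, 0.317, 1.04 and 0 with PB, 1.32, 2.91, 6.28 and 6.11 with RA and 1.92, 1.69, 1.51 and 4.68 with PB+RA. DMSO replicate 4 overlapped both RA and PB+RA, and the other DMSO libraries lay below them. The difference was 1.59 ± 0.41 with RA (adjusted p = 0.00691) and 1.07 ± 0.41 with PB+RA (adjusted p = 0.0466, and 0.164 without PB+RA replicate 4). The leading region, 73832 bases from the nearest start in an intron, had a peak in all 4 PB+RA libraries (2.85, 1.75, 2.83 and 1.4) and in none of the other 12 libraries (difference 1.70 ± 0.31, adjusted p = 0.000191). An intronic region 37018 bases from a start, chosen after its values were seen, was called higher in all 3 comparisons, with differences of 0.74 (PB), 1.21 (RA) and 1.63 (PB+RA). Its PB call ended after GC centring (adjusted p = 0.291) and without DMSO replicate 3 (adjusted p = 0.08).

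CACNA1D, which encodes the L-type channel that opens at lower voltages and paces firing, changed only with PB among the comparisons with DMSO. Its leading intronic region (chr3:53704961-53706766) stood at 2.78, 2.45, 2.82 and 2.71 in the PB libraries, while only DMSO replicate 3 (0.694) and PB+RA replicate 4 (0.233) held a peak in the other groups. No library outside PB reached the PB range. The difference was 1.82 ± 0.33 with PB (adjusted p = 0.00104, and 0.00271 after GC centring), and PB+RA was called lower than PB in 2 regions of CACNA1D. The nearest channel region lay 142977 bases from the canonical start of CACNA1D. CACNA1F and CACNA1S, alpha1 subunits of the retina and of skeletal muscle, had 1 and 2 regions, none called against DMSO.

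**Figure D5:**
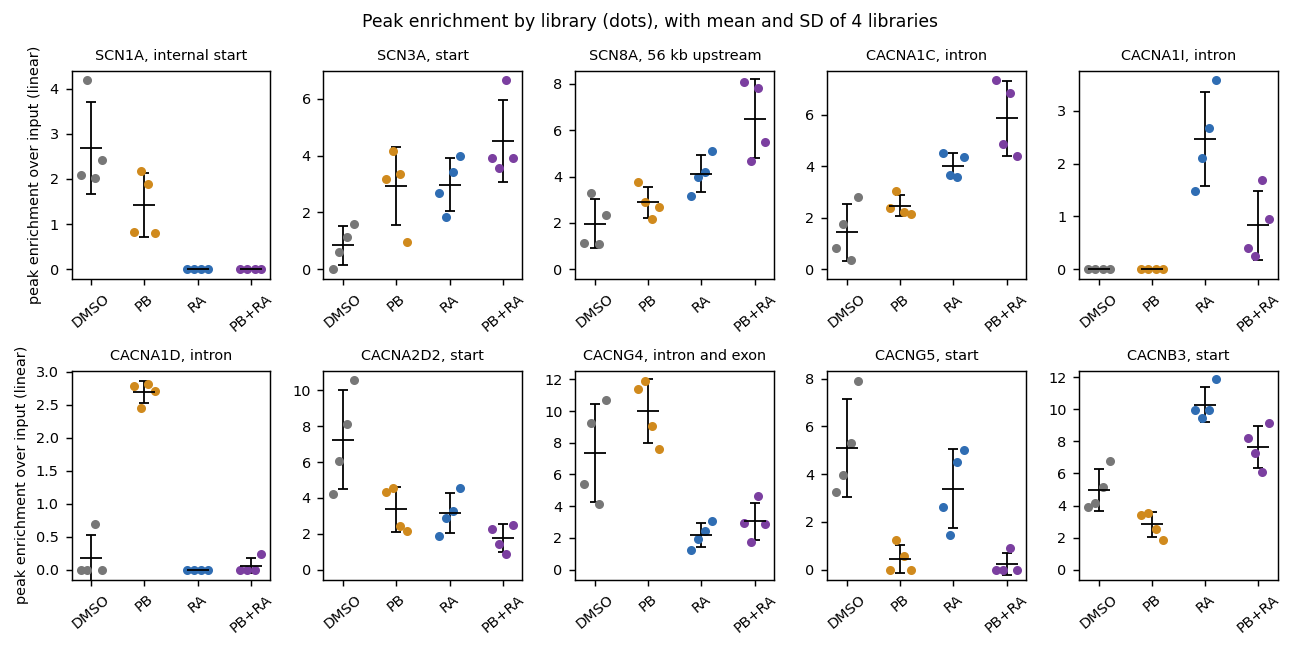
Peak enrichment over input (linear scale) of 10 regions in each library (dots), with the mean (long bar) and SD of the 4 libraries of each group. CACNA1D is at 2.45 to 2.82 in PB libraries and at no more than 0.694 elsewhere, CACNA1I has peaks in RA and PB+RA libraries only, and SCN1A has none in RA and PB+RA libraries.

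The region of CACNA1D that rose with PB holds a partial match to the RE1 element, the site of the repressor REST, which keeps neuronal genes silent in other cells. The letters searched were TTCAGCACCNNGGACAGCGCC on both strands, with up to 4 mismatches among 19 letters. Such a match was held by 13 channel regions (3.7%) and by 2.05% of all regions, and by 1.08% of the 15384 regions of like width to that of CACNA1D. With PB it was held by 1 of 18 channel regions that rose and 1 of 16 that fell. The counts were 0 of 32 and 4 of 38 with RA, and 1 of 52 and 7 of 61 with PB+RA. Wider regions hold a match more often, 1.08% near 1806 bases and 26.6% near 39475 bases. Channel regions that fell were wider than those that rose, with medians of 3797 and 2024 bases with PB and 3452 and 2510 with PB+RA. The counts are therefore not comparable between regions that rose and fell, and no test was made. The CACNA1D match (chr3:53705411-53705471, minus strand) has 3 mismatches. The start region of CACNA1B, 17530 bases wide, holds 2 matches with 1 mismatch each (chr9:140773219-140773279 and chr9:140779168-140779228, minus strand), against 14.0% of regions of like width with a match. These sequences are shown because a region called higher with PB and a region that was not called in any comparison both hold a partial match, capitals mark the 21-base match, and a match says nothing on binding.
CACNA1D intron: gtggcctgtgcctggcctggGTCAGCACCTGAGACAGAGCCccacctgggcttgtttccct
CACNA1B, first match: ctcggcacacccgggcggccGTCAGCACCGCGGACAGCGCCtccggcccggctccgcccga
CACNA1B, next match: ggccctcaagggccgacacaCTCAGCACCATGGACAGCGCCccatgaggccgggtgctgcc

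The alpha1 genes of P/Q-, N- and R-type channels, which trigger transmitter release, held 48 regions, of which 3 rose and 2 fell with PB, 2 rose and 1 fell with RA, and 3 rose and 6 fell with PB+RA, whereas after GC centring PB+RA gave 5 and 3, with none of the 3 lower calls of CACNA1B left. Before centring the shares were 6.25% and 4.17%, 4.17% and 2.08%, and 6.25% and 12.5% in that order. Those of all regions were 5.87% and 3.55%, 10.7% and 6.41%, and 19.4% and 11.9%, without a test. CACNA1B encodes the N-type channel of sympathetic terminals. Its start region stood at 4.74, 5.17, 1.45 and 4.22 in DMSO and between 1.54 and 4.81 in treated libraries, and the differences of 0.07 (PB), 0.07 (RA) and -0.18 (PB+RA), each ± 0.24, were not called. Its leading region (intron, 46467 bases from a start) rose from 0.66, 1.09, 0 and 0.723 to 5.7, 3.11, 3.59 and 1.26 with PB+RA, with every PB+RA library above DMSO (difference 1.44 ± 0.30, adjusted p = 0.00065). CACNA1A, the P/Q-type gene, had its canonical start 16 bases outside a region that was marked in 1 DMSO library and 2 RA libraries and in no PB or PB+RA library. The leading region of CACNA1A fell from 2.33, 2.91, 0.575 and 2.13 in DMSO to a single peak of 0.493 among the PB+RA libraries and 0.189 among the PB libraries, while RA libraries stood at 1.25, 3.03, 2.67 and 2.67 (differences -1.31 ± 0.32 with PB, adjusted p = 0.0112, and -1.31 ± 0.32 with PB+RA, adjusted p = 0.003). After GC centring the PB call ended (adjusted p = 0.107) and the PB+RA call remained (adjusted p = 0.0404). CACNA1E, the R-type gene, had 1 region, which was not called.

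The T-type genes CACNA1G, CACNA1H and CACNA1I encode channels that open near the resting potential and shape burst firing. Of their 45 regions 1 rose and 8 fell with PB, 7 rose and 1 fell with RA, and 3 rose and 14 fell with PB+RA, whereas centring within GC classes gave 2 and 0 with PB, 7 and 2 with RA and 4 and 1 with PB+RA, so that the lower calls outnumbered the higher ones no longer with PB or PB+RA, while the 7 gains with RA stood. Before centring 15.6% rose with RA, against 10.7% of all regions. With PB 17.8% fell and with PB+RA 31.1%, against 3.55% and 11.9%. The family was not tested against all regions. At the CACNA1G start (chr17:48636712-48639107) peak enrichment was 1.4, 0.871, 2.09 and 4.75 in DMSO, 0.956, 0, 1.82 and 2.17 with RA and 0.247, 0, 0 and 1.46 with PB+RA, and no PB library held a peak. The PB libraries did not overlap DMSO. The difference was -1.45 ± 0.40 with PB (adjusted p = 0.0217), and it was -0.93 after GC centring (adjusted p = 0.126) and the call ended without DMSO replicate 4, PB replicate 1 or PB replicate 2 (adjusted p up to 0.0946). At the CACNA1H start (chr16:1201046-1218756) the values were 3.21, 3.4, 1.42 and 3.07 in DMSO, 0.839, 1.51, 0.703 and 0.381 with PB, 2.09, 3.31, 4.03 and 3.28 with RA and 1.35, 1.38, 0.193 and 1.96 with PB+RA, and only DMSO replicate 3 overlapped the PB and PB+RA ranges. The difference was -0.89 ± 0.27 with PB (adjusted p = 0.0348), -0.37 after GC centring (adjusted p = 0.429), and an adjusted p of 0.102 was reached without DMSO replicate 1. A neighbouring intronic region led CACNA1H with -1.30 ± 0.37 with PB (adjusted p = 0.0247, and 0.169 after GC centring), a call that leaving out DMSO replicate 1, 2 or 4 or PB replicate 1 or 2 also ended.

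CACNA1I carried the gain with RA. All 7 of its regions called higher with RA kept an adjusted p under 0.05 after GC centring, and their differences ran from 0.87 to 1.81. The leading region, 32356 bases from the start in an intron (chr22:39999114-40004278), held no peak in DMSO or PB libraries and stood at 1.48, 2.1, 2.68 and 3.58 with RA and at 0.407, 0.26, 1.69 and 0.961 with PB+RA. RA and PB+RA overlapped in a single library. The difference was 1.81 ± 0.33 with RA (adjusted p = 0.00029) and 0.85 ± 0.33 with PB+RA (adjusted p = 0.0499, and 0.172 without PB+RA replicate 3). PB+RA was called lower than RA in 5 regions of CACNA1I, of which 2 kept an adjusted p under 0.05 after GC centring. The region nearest to its start, 2512 bases into the gene, had peaks in all 4 DMSO libraries (1.5, 0.989, 0.318 and 1.26), none with PB, and 2.58, 2.79, 3.01 and 1.64 with RA, where every RA library lay above DMSO (difference 0.87 ± 0.30, adjusted p = 0.0433, and 0.11 without RA replicate 3).

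The alpha2delta genes encode extracellular subunits that raise the number of channels at the membrane, and the products of CACNA2D1 and CACNA2D2 bind gabapentin. They held 116 regions, of which 5 rose and 3 fell with PB, 5 rose and 23 fell with RA, and 12 rose and 23 fell with PB+RA. As shares these are 4.31% and 2.59%, 4.31% and 19.8%, and 10.3% and 19.8%. Those of all regions were 5.87% and 3.55%, 10.7% and 6.41%, and 19.4% and 11.9%, and the family was not tested against them. Centring by GC content left 5 and 31 with RA and 8 and 39 with PB+RA, in the same direction. CACNA2D2 had only lower calls, in 3 of 15 regions (PB), 7 (RA) and 10 (PB+RA). At its start (chr3:50537656-50542361) peak enrichment was 4.21, 6.06, 8.13 and 10.6 in DMSO, 4.33, 4.56, 2.42 and 2.13 with PB, 1.86, 2.86, 3.29 and 4.54 with RA and 2.27, 1.45, 0.844 and 2.49 with PB+RA. Every PB+RA library lay below every DMSO library, and PB and RA each overlapped DMSO replicate 1. The difference was -0.77 ± 0.23 with PB (adjusted p = 0.0317, and 0.623 after GC centring), -0.92 ± 0.23 with RA (adjusted p = 0.00524) and -1.51 ± 0.23 with PB+RA (adjusted p = 1.87e-05), and the RA and PB+RA calls held after GC centring (adjusted p = 0.00436 and 0.00238). Without DMSO replicate 4 the PB difference had an adjusted p of 0.109. The leading region of CACNA2D2, an intronic stretch of 10639 bases, fell from 3.5, 4.22, 1.61 and 3.1 to 0.131, 0.165, 0.704 and 0.392 with PB+RA (difference -1.54 ± 0.27, adjusted p = 0.000103).

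CACNA2D1, with 53 regions over 497.5 kb the member with the most, changed in opposite directions along its length. With RA 5 regions rose and 12 fell. The 5 that rose were the 5 called regions farthest from the outermost start, at 424.5 to 486.8 kb, with differences of 1.28 to 2.02, and the 12 that fell lay at 8.3 to 394.3 kb with differences of -1.56 to -0.59. All 17 calls held after GC centring. The leading region of the gene, 1 of these 5 (chr7:81633871-81642764) stood at 0.37, 0, 0.0782 and 0 in DMSO, 1.21, 1.53, 0.733 and 0.434 with PB, 3.94, 3.26, 3.17 and 2.9 with RA and 2.55, 1.85, 2.12 and 1.77 with PB+RA, and no treated library overlapped DMSO. The difference was 0.94 ± 0.24 with PB (adjusted p = 0.014, and 0.164 after GC centring), 2.02 ± 0.24 with RA (adjusted p = 1.58e-06) and 1.52 ± 0.24 with PB+RA (adjusted p = 3.34e-05). The start of CACNA2D1 was marked strongly, at 10.9 to 19.3 in DMSO, 8.1 to 21.2 with PB, 9.14 to 12.1 with RA and 8.55 to 14.8 with PB+RA, and was not called in any comparison, while after GC centring its PB+RA difference was -0.82 (adjusted p = 0.0105).

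CACNA2D3 had higher calls with PB and with PB+RA. Of 34 regions 3 rose with PB, 2 fell with RA, and 6 rose and 2 fell with PB+RA. Over all regions 5.87% rose with PB, 6.41% fell with RA, and 19.4% rose and 11.9% fell with PB+RA. The gene was not tested against these shares. After GC centring 2 of the 3 higher calls with PB kept an adjusted p under 0.05. Compared directly, PB+RA was higher than RA in 12 of its regions and RA was lower than PB in 13, the most of any member in the first of these comparisons. After GC centring 8 and 13 of these kept an adjusted p under 0.05. Its leading region, far inside the gene, held no peak in DMSO or RA libraries, stood at 1.29, 1.31, 0 and 0 with PB and reached 3.04, 2.73, 2.64 and 1.73 with PB+RA, above every other library (difference 1.85 ± 0.31, adjusted p = 7.08e-05). CACNA2D4, which lies next to CACNA1C on chromosome 12, had 3 regions that fell and 1 that rose with PB+RA. The region that rose, 41163 bases from the start, held no peak in DMSO and stood at 2.31, 2.04, 1.06 and 1.87 with PB+RA (difference 1.52 ± 0.33, adjusted p = 0.000942). Its leading region, 5184 bases upstream of its start, fell from 2.77, 4.11, 3.14 and 3.81 in DMSO to 0, 0.707, 0.411 and 0.341 with RA and to a peak of 0.895 in a single PB+RA library, with PB between them at 1.37, 2.25, 1.43 and 1.64. No treated library reached the DMSO range, and the difference was -1.67 ± 0.28 with RA (adjusted p = 0.000123) and -1.87 ± 0.28 with PB+RA (adjusted p = 1.97e-05).

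Cytosolic beta subunits, which bring the alpha1 pore to the membrane, held 9 regions, and none was called with PB. Among all regions 5.87% rose and 3.55% fell with PB. CACNB3, the beta subunit most often paired with N-type channels in neurons, had 2 regions over separate starts. The region over its canonical start (chr12:49211250-49214514) stood at 3.88, 4.15, 5.17 and 6.77 in DMSO, 3.43, 3.51, 2.54 and 1.86 with PB, 9.97, 9.45, 9.99 and 11.9 with RA and 8.24, 7.27, 6.09 and 9.14 with PB+RA. RA libraries lay above all others, and DMSO replicate 4 reached the PB+RA range. The difference was 0.99 ± 0.17 with RA (adjusted p = 0.00012) and 0.59 ± 0.17 with PB+RA (adjusted p = 0.00839), and both held after GC centring (adjusted p = 0.000436 and 9.09e-05). The adjacent upstream start of CACNB3 was marked at 12.5 to 23 in DMSO and 15.2 to 17.4 with RA and was not called with RA (difference -0.11 ± 0.18, adjusted p = 0.744). CACNB1 had a lower intronic region with PB+RA (difference -1.06 ± 0.37, adjusted p = 0.0309), a call that ended after GC centring (adjusted p = 0.157) and without DMSO replicate 1 or 2 or PB+RA replicate 1 or 3, while its start region, which also covers a start of another gene, was not called. CACNB2 had 1 region, which was not called.

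Although named as calcium channel gamma subunits, the 6 gamma members are known chiefly as auxiliary proteins that carry AMPA-type glutamate receptors to synapses and tune their gating. They held 39 regions, of which 2 fell with PB, 2 rose and 5 fell with RA, and 6 rose and 11 fell with PB+RA, and after GC centring PB+RA gave 6 and 5. CACNG5 had the difference of largest size among all called channel regions in the comparisons with DMSO. At its start (chr17:64830875-64831673) peak enrichment was 3.23, 3.95, 5.31 and 7.91 in DMSO, 0, 1.23, 0.556 and 0 with PB, 2.6, 1.44, 4.5 and 4.99 with RA and 0, 0, 0.909 and 0 with PB+RA. PB and PB+RA libraries lay below every DMSO library, and RA overlapped DMSO. The difference was -1.97 ± 0.32 with PB (adjusted p = 0.000433), -0.45 ± 0.32 with RA (adjusted p = 0.356) and -2.27 ± 0.32 with PB+RA (adjusted p = 7.57e-06), and the PB and PB+RA calls held after GC centring (adjusted p = 0.00845 and 0.000211). CACNG4, its neighbour on chromosome 17, had lower calls with RA in 3 of 12 regions, against 6.41% of all regions. Its leading region stood at 5.41, 9.24, 4.14 and 10.7 in DMSO, 11.4, 11.9, 9.07 and 7.62 with PB, 1.25, 1.93, 2.41 and 3.09 with RA and 2.96, 1.74, 4.61 and 2.86 with PB+RA, so that RA did not overlap DMSO and PB+RA did in 1 library. The difference was -1.30 ± 0.22 with RA (adjusted p = 0.000112), -0.97 ± 0.22 with PB+RA (adjusted p = 0.00137) and 0.58 ± 0.22 with PB (adjusted p = 0.0884). Of 12 CACNG4 regions 9 fell with PB+RA, and 4 of these kept an adjusted p under 0.05 after GC centring.

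CACNG2, CACNG7 and CACNG8 each rose in at least 1 region with PB+RA. CACNG2, which encodes stargazin, had 4 regions higher and none lower with PB+RA, and all 4 held after GC centring. Its start region stood at 1.55, 2.07, 4.08 and 3.34 in DMSO and at 5.4, 6.56, 4.98 and 5.95 with PB+RA, which did not overlap (difference 0.93 ± 0.21, adjusted p = 0.00152). PB and RA alone differed from DMSO there by 0.00 and 0.10 (each ± 0.21, adjusted p = 0.997 and 0.819). The leading region of CACNG2, an intronic one 59892 bases from the start, stood at 0.781, 1.49, 0.252 and 1.01 in DMSO and 7.12, 3.95, 2.69 and 2.21 with PB+RA (difference 1.40 ± 0.29, adjusted p = 0.000679). The start of CACNG7 rose with RA from 0.756, 0.379, 1.71 and 2.61 to 3.03, 2.99, 4.5 and 4.89, without overlap (difference 1.17 ± 0.28, adjusted p = 0.00419). CACNG8 had a region 4048 bases upstream with peaks in 3 of 4 PB+RA libraries and 1 RA library (difference with PB+RA 1.17 ± 0.40, adjusted p = 0.0254, and up to 0.0839 without DMSO replicate 2 or 4 or PB+RA replicate 3 or 4).

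Regions near starts and far from them were compared by counts. The 44 channel regions within 3 kb of a start of their own gene had 3 higher and 5 lower calls with PB, 6 and 4 with RA, and 12 and 8 with PB+RA. The 307 regions farther away had 15 and 11, 26 and 34, and 40 and 53. Thus 27.3% of the regions near starts rose with PB+RA and 13.0% of the others did, without a test of the difference. Over all regions 19.4% rose with PB+RA. That share was not split by distance from a start, so whether the contrast is particular to channel genes is not known. Regions near starts were of higher level in DMSO, with a median of the authors' mean of 6.07 against 5.00.

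Direct comparisons between treatments gave higher and lower calls. Of the 351 channel regions, PB+RA was higher than PB in 23 and lower in 28, against 9.54% and 5.68% of all regions. PB+RA was higher than RA in 28 and lower in 16, against 8.27% and 5.5%. RA was higher than PB in 35 and lower in 58, against 10.5% and 9.98%. CACNA2D1, with 18, and CACNA2D3, with 13, held 31 of the 58 regions in which RA was lower than PB, and CACNA1I, with 8, held the most of the 35 in which RA was higher. SCN8A had 4 regions in which PB+RA was higher than PB and 2 in which it was higher than RA, and CACNG2 had 5 and 3. These comparisons share libraries with those against DMSO and are not independent of them. The channel counts were not tested against the shares of all regions. Where RA was lower than PB, 15 of the 18 CACNA2D1 calls and all 13 of CACNA2D3 kept an adjusted p under 0.05 after GC centring. Of the 8 CACNA1I calls 6 kept it. All SCN8A calls named here kept it, as did 5 and 2 of those of CACNG2.

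Peaks that appeared or disappeared altogether were few. A peak in all 4 PB libraries and no DMSO library was found at 3 channel regions, and the reverse at 5, against 0.84% and 0.521% of all regions. The counts were 5 and 3 with RA, against 2.93% and 0.905%, and 12 and 5 with PB+RA, against 5.66% and 1.09%. SCN8A held 3 of the 12 regions gained with PB+RA, and CACNA1C and CACNA2D3 held 2 each. CACNA1G and CACNA1I each lost 2 of the 5 regions whose peaks were lost with PB, and 1 start region of CACNA1G and the near-start region of CACNA1I were among them.

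Because RA acts through nuclear receptors that bind pairs of the hexamer AGGTCA, the channel regions were searched for direct repeats spaced by 2 bases (DR2), both exactly (AGGTCANNAGGTCA) and with A or G at the first and G or T at the third position of each hexamer, on both strands. The relaxed form was found in 26 channel regions (7.41%) and in 7.43% of all regions, and in 5 of the 32 channel regions that rose with RA and 8 of the 38 that fell. These called regions were wider, with medians of 2787 and 4704 bases against 1728 over all regions. Wider regions hold a match more often, 2.86% near 1239 bases and 15.0% near 5165 bases. The counts in called regions are therefore not comparable with the share of all regions, and no test was made. The exact form was found in 1 channel region, a stretch of 38836 bases in CACNA2D2, and 6.39% of regions of like width hold it. The relaxed match in a region between the starts of SCN2A and SCN3A (chr2:166071065-166071118, minus strand, where 2.86% of regions of like width hold a match) and the exact match in CACNA2D2 (chr3:50466168-50466221, plus strand) are shown with 20 bases on each side, to set the windows beside each other. Capitals mark the repeat.
SCN2A and SCN3A: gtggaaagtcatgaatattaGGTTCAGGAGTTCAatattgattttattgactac
CACNA2D2: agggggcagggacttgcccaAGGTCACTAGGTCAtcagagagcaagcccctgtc
These windows share 16 of 54 bases, the fewest of any pair compared. Other relaxed matches, in CACNA1I, SCN8A, SCN9A and elsewhere in CACNA2D2, had windows much like one another. Each pair of those shared 42 to 50 of 54 bases, so those matches are not unrelated sequences. Repeat elements were not annotated here, and whether a receptor binds any of these windows was not measured. Repeats spaced by 1 base (DR1) or 5 bases (DR5) were searched in the same exact and relaxed forms. Exact DR1 was found in 2 channel regions (0.57%, against 0.219% of all regions) and exact DR5 in 0 (against 0.123%). Relaxed DR5 was found in 4 (1.14%, against 0.934%), namely in 0 of 32 that rose with RA and 1 of 38 that fell. Relaxed DR1 was found in 6 (1.71%, against 1.25%), none called with RA.

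The partners of these channels, a list of 28 genes that holds ankyrins, intracellular FGFs, release-site scaffolds, calmodulins and CaM kinases among others, held 402 regions. With PB 38 of them rose and 4 fell (9.45% and 0.995%), with RA 31 rose and 20 fell (7.71% and 4.98%), and with PB+RA 87 rose and 28 fell (21.6% and 6.97%). Channel regions had 5.13% and 4.56% with PB and 14.8% and 17.4% with PB+RA, and all regions 5.87% and 3.55% with PB and 19.4% and 11.9% with PB+RA. The partner calls were uneven between genes. FGF14, with 50 regions, held 16 of the 38 higher calls with PB, and 11 of the 28 genes had any. With PB+RA, 20 genes had a higher call, and ANK2 and FGF14 held 19 and 15 of the 87. The partner and channel shares were not tested against each other.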

How the data were processed

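The samples were 16 H3K27ac ChIP libraries, 4 in each of the DMSO, PB, RA and PB+RA groups, taken from the treatment labels, and 16 inputs without values of their own. According to the submitters' processing notes, reads were processed with fastp 0.12.4, Bowtie2 2.4.4 (hg19), MACS2 2.2.7.1, DiffBind 3.4 and deepTools. The deposited peak lists hold 1 library each and give for every broad peak a score, a fold enrichment over input and -log10 p and q values, all written by the peak caller that the authors ran. The deposited comparison tables hold 1 mean log2 concentration per group, which the authors made with DiffBind from normalized reads. The authors' own fold changes, p-values and FDRs in those tables were not used, and 0 columns belonged to another series.

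Peak enrichment was the sum, over the peaks of a library, of overlapping bases times fold enrichment, divided by the region width. It was taken as log2(value + 1), each library was centred on the median over 26499 regions with a peak in all 16 libraries, and limma 3.58.1 (R 4.3.3, empirical Bayes with trend and robust options, two-sided) was fitted to 92092 regions over all 16 libraries. The fit was tested on simulated data first. Regions were named by rule, namely the start region of each member and the called region with the largest difference (the leading region). Region names and starts came from the GENCODE annotation of hg19, and 16 regions on sequences outside the reference were left out. Alternatives were other scalings, a stricter peak threshold (-log10 q of at least 5), a filter, a replicate block, assignment by nearest start alone, and leaving out each library. The members and lists were chosen with earlier results of these data known. The replicates come from different passages of a single line, and p-values measure the spread between these libraries. The depth of each library is unknown, so no counting interval is given. Some sequences are not reported here.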

Additional observations from a re-analysis of the deposited data

Results flagged for a closer look

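Of 79 groups of 4 libraries examined, 2 held a library whose gap to its nearest neighbour exceeded the 95% limit of Dixon's test, taken on the log2(peak enrichment + 1) scale for regions, where chance gives about 1 in 20. PB+RA replicate 2 had 307.2 kb under peaks in channel regions against 425.2, 417.7 and 415.8 kb in the other PB+RA libraries. At the leading region of CACNA1A, RA replicate 1 had a peak enrichment of 1.25 against 3.03, 2.67 and 2.67 in the other RA libraries.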

How the results depend on the processing

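Counts of called channel regions depended most on the peak threshold. With peaks of a -log10 q of at least 5, PB gave 3 higher and 3 lower, RA 4 and 11, and PB+RA 17 and 12, while PB+RA differed from PB in 12 regions (51 before), from RA in 11 (44 before), and RA from PB in 17 (93 before). Of the 28 leading regions 8 kept their call, 17 fell below the threshold, and those of CACNA1A (0.098), CACNA1H (0.265) and CACNB1 (0.098) changed sign. These values equal the median difference over all channel regions at that threshold (0.265 with PB, 0.098 with PB+RA), which is the centring offset of regions left without a peak, so they are no measured reversal.

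Without scaling PB gave 10 higher. GC centring left 5 lower with PB and kept 23 of 28 leading calls, and GC centring with a replicate block left 7 lower with PB and 60 lower with RA. Assignment by nearest start alone left 28 regions that differed between PB+RA and RA. For peaks gained or lost altogether, the stricter threshold gave 0 gained and 1 lost with PB, 0 gained with RA, and 3 gained and 2 lost with PB+RA. A required cover of 20% gave 9 gained and 9 lost with RA and 11 lost with PB+RA, and nearest start alone gave 3 gained with RA.

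Leaving out 1 library at a time gave 12 to 21 higher and 6 to 30 lower with PB, 26 to 34 and 29 to 54 with RA, and 43 to 58 and 43 to 86 with PB+RA. PB+RA against PB gave 39 to 51, PB+RA against RA 29 to 53 and RA against PB 72 to 94. The 16 lower calls with PB became 9 without DMSO replicate 1, 30 without DMSO replicate 3, 6 without DMSO replicate 4, 7 without PB replicate 1, 6 without PB replicate 2 and 10 without PB replicate 3, and the 44 calls of PB+RA against RA became 29 without PB+RA replicate 1.

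Same-numbered libraries of different groups had correlations of deviations from -0.0603 to 0.204 (median 0.114, against -0.0756 for different numbers), and 8 of 16 libraries correlated best with their own number. Not every pair passed 0.1, and no label ties the numbers to a shared culture, so the numbers were not taken as pairs. A fit with the replicate number as a block gave 26 higher and 22 lower with PB, 35 and 42 with RA, and 59 and 63 with PB+RA. It added lower calls at SCN4B (1), CACNB3 (2), CACNA2D4 (1) and CACNG8 (1) and a higher call at SCN9A (1) with PB, a lower call at SCN2B (1), 1 higher and 1 lower at CACNA1B and 1 higher at CACNA1H with RA, and a lower call at SCN4B (1) with PB+RA, where no region was called without the block in that direction, and raised the higher calls of CACNA1C with PB+RA from 7 to 10. A fold enrichment is given only where a peak was called, so weak acetylation is not measured.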
